A study of Mus musculus with 9 samples.

Results

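The 10 genes described here are the cyclins and cyclin-dependent kinases (CDKs) that carry a cell from G1 into S phase, with a phosphatase that activates them: Ccnd1, Ccnd2, Ccnd3, Cdk4, Cdk6, Ccne1, Ccne2, Ccna2, Cdk2 and Cdc25a. They were chosen by name, and all 22 probes annotated to them were taken, of 45281 probes and 19057 named genes on the array. A level above background was measured for 9 of the 10 genes, through 19 probes, while 3 probes, among them the only probe of Cdk6, did not pass the filter on dim probes.

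The data are gene expression values of mNS-5 cells, a clonal mouse embryonic stem (ES) cell-derived neural stem cell (NSC) line, measured on Illumina MouseWG-6 BeadChips to ask how NSC gene expression depends on Med12. Med12 is the subunit of the Mediator kinase module that activates Cdk8 bound to cyclin C. Cells were infected with lentivirus carrying a non-silencing (NS) control shRNA, on 3 arrays, or a Med12 shRNA (Med12 KD), on 6 arrays, selected with puromycin and harvested 5.5 days after infection, all of them in gelatin-coated culture with FGF-2 and EGF. The labels place the arrays in 3 sets of 1 NS array and 2 Med12 KD arrays, called here KD 1 to KD 3 and, for the other array of each set, KD 1_2 to KD 3_2. The methods of the study describe 3 independent replicates of a condition and 1 Med12 shRNA construct, while the series record writes of Med12 shRNAs in the plural, and neither says how the KD arrays of a set differ. All cells are of 1 clonal line, and the p-values rest on the variation from array to array, some of which may be technical.

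In the textbook scheme of the G1/S transition, D-type cyclins made in response to growth factors bind Cdk4 or Cdk6, and these kinases phosphorylate the retinoblastoma family proteins that hold E2F factors in check. Freed E2F factors activate the genes of cyclin E, cyclin A and the replication machinery, and cyclin E and then cyclin A drive Cdk2 through S phase entry. In neural progenitors a longer G1 is known to accompany the move from self-renewal to differentiation, and D-type and E-type cyclins are known to shorten it.

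Of the 9 measured genes, 1 was lower in Med12 KD and none was higher at an adjusted p of 0.05 or less (limma, Benjamini-Hochberg over 10757 genes). The gene that fell was Ccne2, by 2.05-fold. Of all genes tested, 3.81% were lower and 6.56% higher by the same rule. The other 8 measured members did not pass. By the brightest probe of a gene, Ccnd3 and Cdk4 were next in order of p. Every KD array lay below every NS array for both, as for 8.39% of all genes. Ccnd1, Ccnd2 and Cdk2 had differences between 0.03 and 0.16 on the log2 scale by that probe, and their dimmer probes ranged from -0.26 to 0.60. A dimmer Cdk4 probe passed (-0.66, limma adjusted p = 0.0154 over 20026 probes, of which 2.85% were lower).

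Promoter sequence was at hand for 6 of the 10 members, in 7 windows of 300 bases (250 before to 50 after the annotated start; RefSeq, build GRCm38.p6). Windows of the 3 measured members are shown that hold letters of factors that act in this pathway. Capitals mark E2F letters (TTTCCCGC, TTTCGCGC, TTTGCCGC or TTTGGCGC, on either strand) in the windows of Cdk2 and Cdc25a, and E-box letters (CACGTG, the same on both strands, bound by Myc with Max) in the window of Cdk4. The Cdk4 window is chr10:127063285-127063584 on the plus strand, that of Cdk2 is chr10:128705002-128705301 on the minus strand, and that of Cdc25a is chr9:109875329-109875628 on the plus strand, all written from 5′ to 3′ of the gene.
Cdk4: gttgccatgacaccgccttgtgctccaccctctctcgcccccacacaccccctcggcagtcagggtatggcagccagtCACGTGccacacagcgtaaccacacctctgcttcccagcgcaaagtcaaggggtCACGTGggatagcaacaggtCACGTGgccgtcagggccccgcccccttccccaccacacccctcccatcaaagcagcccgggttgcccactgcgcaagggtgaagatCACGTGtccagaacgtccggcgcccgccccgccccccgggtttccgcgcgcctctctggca
Cdk2: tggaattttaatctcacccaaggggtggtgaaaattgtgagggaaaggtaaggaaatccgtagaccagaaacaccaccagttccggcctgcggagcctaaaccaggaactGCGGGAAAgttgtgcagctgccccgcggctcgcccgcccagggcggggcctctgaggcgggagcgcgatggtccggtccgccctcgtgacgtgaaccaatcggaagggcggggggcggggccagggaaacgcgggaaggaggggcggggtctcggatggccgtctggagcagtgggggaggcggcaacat
Cdc25a: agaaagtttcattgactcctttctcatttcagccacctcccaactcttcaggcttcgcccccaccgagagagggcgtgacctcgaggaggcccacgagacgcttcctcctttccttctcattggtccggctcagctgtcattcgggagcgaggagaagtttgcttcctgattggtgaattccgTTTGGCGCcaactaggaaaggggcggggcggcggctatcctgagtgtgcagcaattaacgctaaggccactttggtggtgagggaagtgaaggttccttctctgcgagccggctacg

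E2F letters stood in 2 of the 7 windows, at 67 bases before the start in Cdc25a and, as the reverse complement, at 140 bases before the start in Cdk2, where 2.26% of 32851 promoters of the same length held them. The cell cycle homology region letters TTTGAA were in 0 of the 7 windows and in 17.9% of all promoters. E-box letters were searched only after the sequences had been seen. They stood 4 times in the Cdk4 window, at 172, 118, 98 and 11 bases before the start, and 1 time in that of Cdk6, at 220 bases before it. Distances are from the start that the window was built on. For Cdk6 (window chr5:3343643-3343942) and Cdc25a that start lies inside the gene as located below, so distances from the gene's outer end differ. In all, 7.15% of promoters held an E-box and 8 promoters (0.0244%) held 4 or more. A match of letters is a description of the window and not a measured binding site.

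The array check of the target came first. Med12 (chromosome X, 101274091 to 101298934, GRCm38.p6) had intensities of 355.0, 355.7 and 266.7 on NS 1 to NS 3, of 121.8, 121.0 and 175.9 on KD 1 to KD 3, and of 165.0, 112.0 and 126.0 on KD 1_2 to KD 3_2. Every KD array lay below every NS array, and the difference was -1.26 ± 0.18 (SE, log2 scale, limma adjusted p = 0.00276). Over all genes, 84 were lower and 325 higher by that threshold together with a 2-fold change (0.781% and 3.02%). Median intensity was 8.9 to 9.0 per array, 18654 to 18690 probes an array exceeded the background limit of 16.9, and KD arrays correlated at 0.973 to 0.988 with one another. Of 8 neural stem cell markers 6 were tested and none passed, with a summed intensity of 33589 to 36226 on NS arrays and of 33288 to 37131 on KD arrays, and Pax6 was not above background. The sum was mostly Slc1a3, and it hides unlike differences of the 6 markers, whose median was -0.27. Slc1a3 differed by 0.21 and Sox2 by 0.0005, and Fabp7, Vim, Olig2 and Nes by -0.50, -0.40, -0.31 and -0.22. Of 4 astrocyte markers, all tested, Aldh1l1 rose (1.04, limma adjusted p = 0.0400), and the sum of the list was 168 to 263 on NS and 306 to 793 on KD arrays. That sum was mostly S100b, with means of 158 on NS and 343 on KD arrays, which did not pass (limma adjusted p = 0.0727). Gfap (means of 7.3 and 27.3) and Aqp4 (31.5 and 33.6) were dim and did not pass either. Of 5 neuronal markers 3 were tested and none passed, Tubb3 and Rbfox3 were not above background, and the sum, mostly Map2, was 5473 to 6301 on NS and 6603 to 8318 on KD arrays. None of the 4 oligodendrocyte markers could be tested (sums of 9.3 to 17.0 and 2.5 to 47.2), with Mbp, Mog and Mag not above background, and of 4 ES cell markers 3 were tested and none passed (sums of 53.9 to 92.1 and 77.8 to 114.2), with Zfp42 not above background. The astrocyte and neuronal sums did not overlap between the groups, and their part in the results on cyclins and CDKs was not tested. In RNA from a whole culture, fewer cells of a type or cycle phase and less RNA per cell cannot be told apart.

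**Figure D1:**
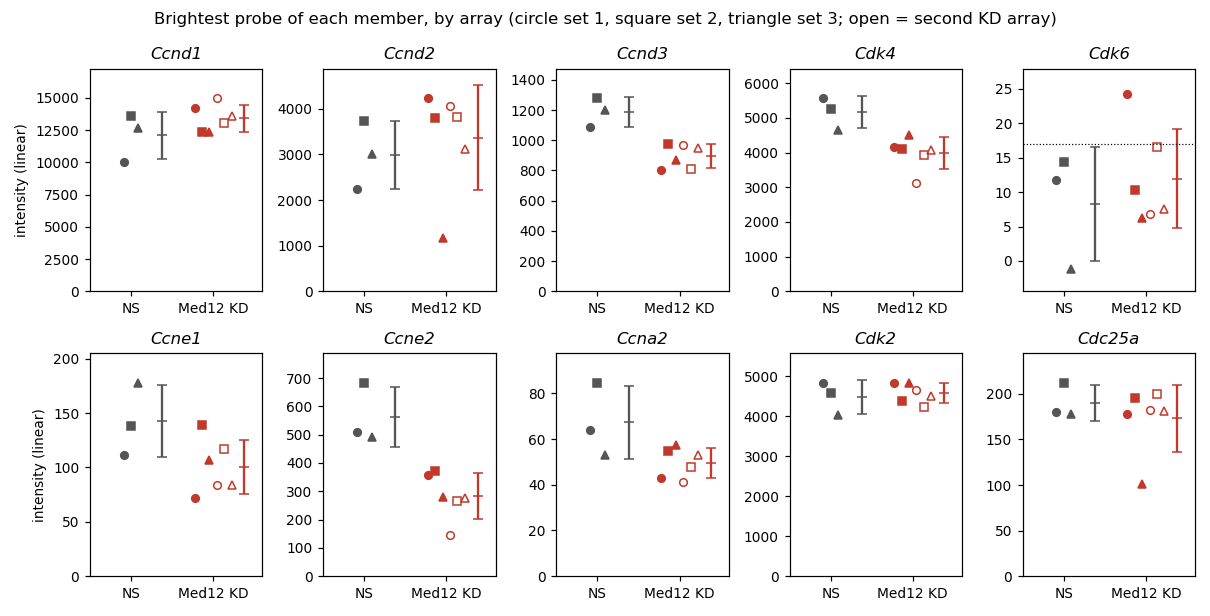
Intensity (linear scale) of the brightest probe of each of the 10 members on every array, grey for NS control and red for Med12 KD; the bar beside each group is the mean ± SD (n = 3 and n = 6) and the dotted line in the Cdk6 panel the background limit of 16.9. KD arrays lie below all NS arrays for Ccnd3, Cdk4 and Ccne2, KD 3 stands apart for Ccnd2 and Cdc25a, and Cdk6 exceeds the limit on 1 array.

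The D-type cyclins are the growth factor-dependent partners of Cdk4 and Cdk6. Ccnd1 (chromosome 7, 144929931 to 144939831) encodes cyclin D1. Its brightest probe read 10048.7, 13609.5 and 12652.6 on NS 1 to NS 3 and from 12321.2 to 15027.2 on the KD arrays, with a median of 13328.9. NS 1 was the lowest of all arrays and the other NS arrays fell inside the KD range, so the groups overlapped. The difference was 0.16 ± 0.13 (SE, log2 scale), with a 95% confidence interval of -0.14 to 0.45 (limma adjusted p = 0.483), which for this probe leaves out a change of 2-fold in either direction. It was 0.03 without NS 1 and 0.25 without NS 2.

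The other Ccnd1 probes did not give the same size of difference. The second brightest read 8686.7, 10927.6 and 12609.1 on NS arrays and 9960.6 to 12283.6 on KD arrays, a difference of 0.05 on the log2 scale. The dimmest of the 3 read 2076.3, 3640.4 and 2756.9 on NS arrays against a KD range of 3613.4 to 5146.6 with a median of 3964.95. On that probe only KD 2 lay within the NS range. Its difference was 0.60 ± 0.19 (SE, 95% confidence interval 0.18 to 1.02), which did not pass over the 20026 probes tested (limma adjusted p = 0.0875). The interval of this dimmest probe takes in a 2-fold rise.

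Ccnd2 (chromosome 6, 127125162 to 127152188) encodes cyclin D2, a D-type cyclin of cycling neural progenitors. Its brightest probe read 2232.9, 3722.1 and 3019.2 on NS 1 to NS 3, and 4245.6, 3805.5 and 1160.0 on KD 1 to KD 3. KD 1_2 to KD 3_2 read 4065.1, 3831.3 and 3118.3. KD 3 was the lowest of the 9 arrays, while 4 of the other 5 KD arrays were above every NS array. The difference was 0.09 ± 0.38 (SE, 95% confidence interval -0.76 to 0.94, limma adjusted p = 0.909).

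The low value on KD 3 recurred on every Ccnd2 probe above background. The second probe read 658.4 on KD 3 against 2290.5 to 2670.7 on the other KD arrays, and the third read 25.1 against 82.5 to 174.6. The 3 probes gave differences of 0.09, -0.05 and 0.06. Without KD 3 the difference of the brightest probe was 0.37 (limma adjusted p = 0.224). A further Ccnd2 probe read between -22.5 and 3.1 on all arrays and was not above background.

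Ccnd3 (chromosome 17, 47505051 to 47599689) encodes cyclin D3. Its brightest probe read 1085.0, 1282.8 and 1199.9 on NS 1 to NS 3, 805.8, 973.9 and 870.7 on KD 1 to KD 3, and 966.5, 812.2 and 949.8 on KD 1_2 to KD 3_2. The highest KD array stayed below the lowest NS array. The difference was -0.41 ± 0.12 (SE, 95% confidence interval -0.68 to -0.14), and it did not pass the threshold (limma adjusted p = 0.0604). With the set as a replicate block the same difference passed (limma adjusted p = 0.0475), and with the 2 KD arrays of each set averaged it did not (limma adjusted p = 0.130).

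A dimmer Ccnd3 probe read 73.9, 81.1 and 74.0 on NS arrays and 42.5 to 76.1 on KD arrays, with a median of 59.75, and only KD 2 lay within the NS range. Its difference of -0.40 ± 0.20 (SE) was close to that of the brightest probe but did not pass (limma adjusted p = 0.259 over all probes). A further probe, between -5.8 and 20.8, was not above background.

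**Figure D2:**
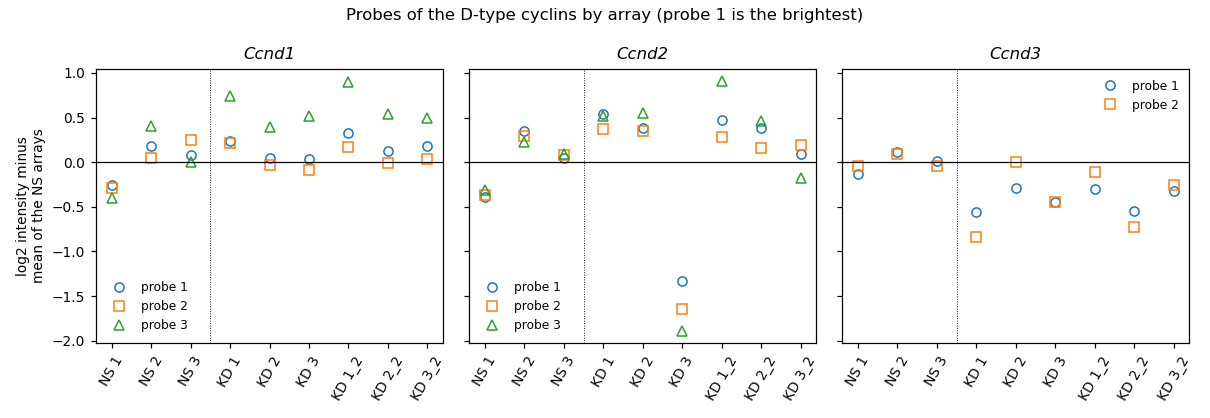
Each probe above background of the D-type cyclins on each array, as log2 intensity minus the mean of that probe on the NS arrays; the dotted line parts NS from KD arrays. All 3 Ccnd2 probes are lowest on KD 3, NS 1 is the lowest NS array on every Ccnd1 and Ccnd2 probe, and both Ccnd3 probes lie below the NS mean on every KD array, 1 of them narrowly on KD 2.

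Whether the D-type cyclins changed unequally was tested on the log2 ratio of their brightest probes within each array, for 4 pairs of related members with an exact permutation test (two-sided, all 84 splits of the 9 arrays). The ratio of Ccnd1 to Ccnd3 was 3.21 to 3.41 on NS arrays and 3.67 to 4.14 on KD arrays, so that the groups did not overlap. Ccnd1 differed from Ccnd3 by 0.57 on the log2 scale (exact p = 0.0119, the smallest this design allows; 0.0476 adjusted over the 4 pairs). Leaving out KD 3 gave 0.58 with an adjusted exact p of 0.0357. Leaving out any of the other 8 arrays kept the difference between 0.50 and 0.61 but gave an adjusted exact p of 0.0714 or 0.143, as fewer arrays have fewer splits. With the sets as a replicate block, splits kept within sets number 27, and the same difference had an exact p of 0.0370, the smallest they allow, and of 0.148 adjusted over the 4 pairs. The call was thus made only with arrays exchanged across sets. Within sets, a pair that alone reaches the smallest p cannot pass after adjustment over 4 pairs, so those splits cannot decide the call.

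Ccnd1 against Ccnd2 differed by 0.07 (exact p = 0.952) and Ccnd2 against Ccnd3 by 0.50 (exact p = 0.310, adjusted 0.413). Both rested on KD 3. Without it the former was -0.19 (adjusted exact p = 0.250) and the latter 0.77 (adjusted exact p = 0.0357). A ratio within an array shows unequal change and not which of the pair moved.

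Cdk4 and Cdk6 are the kinases that D-type cyclins activate. Cdk4 (chromosome 10, 127063535 to 127067288), whose window with 4 E-boxes is printed above, had 2 probes. The brightest read 5587.3, 5268.1 and 4661.6 on NS 1 to NS 3, 4148.8, 4113.1 and 4505.9 on KD 1 to KD 3, and 3113.7, 3938.4 and 4067.6 on KD 1_2 to KD 3_2. KD 1_2 was lowest, and the gap between KD 3 and NS 3 was the narrowest between the groups. The difference was -0.38 ± 0.14 (SE, 95% confidence interval -0.69 to -0.07), which did not pass (limma adjusted p = 0.107).

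The dimmer Cdk4 probe separated the groups more widely. It read 1432.3, 1135.5 and 1256.9 on NS 1 to NS 3 and 753.6 to 881.3 on the 6 KD arrays, with a median of 786.7. This probe fell by 0.66 on the log2 scale (SE 0.13, 95% confidence interval -0.95 to -0.38, limma adjusted p = 0.0154 over 20026 probes, of which 2.85% were lower and 4.35% higher). With the mean of both probes standing for the gene, Cdk4 fell by 0.52 (limma adjusted p = 0.0257). The intervals of both probes overlap, and their difference was not tested.

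Cdk6 (chromosome 5, 3341004 to 3531008) had 1 probe, which read 11.7, 14.4 and -1.1 on NS arrays and 24.3, 10.3, 6.2, 6.8, 16.6 and 7.6 on KD arrays. Only KD 1 exceeded the background limit of 16.9. The gene was therefore left out of the comparison and its ratio to Cdk4 was not formed. With no filter on dim probes it did not pass (limma adjusted p = 0.919), and no fold change is given for values at background.

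The E-type cyclins activate Cdk2 at the G1/S boundary and are E2F target genes. Ccne2 (chromosome 4, 11190433 to 11204779), which encodes cyclin E2, read 510.6, 684.5 and 491.3 on NS 1 to NS 3. It read 357.6, 371.5 and 281.4 on KD 1 to KD 3 and 146.0, 264.1 and 275.6 on KD 1_2 to KD 3_2. Every KD array was below every NS array, and KD 1_2 was lowest by a clear gap. Mean intensity was 562 ± 106 (SD, n = 3) in NS control and 283 ± 80.7 (SD, n = 6) in Med12 KD. Ccne2 fell by 1.04 on the log2 scale (SE 0.27, 95% confidence interval -1.64 to -0.43, limma adjusted p = 0.0378).

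Ccne2 passed both the adjusted p and the fold of 2 in the lower direction, as did 0.781% of all genes. The fall was seen within each set, at -1.16, -1.13 and -0.82 for sets 1 to 3. It was larger with KD 1_2 to KD 3_2 alone, -1.34 (limma adjusted p = 0.0497), than with KD 1 to KD 3 alone, -0.73 (limma adjusted p = 0.117), and the difference between these values, which share the NS arrays, was not tested. The direction held with each array left out, from -1.13 to -0.86, but the call was lost without NS 1, NS 2 or NS 3 (limma adjusted p = 0.0780, 0.138 and 0.0856) and without KD 3, KD 2_2 or KD 3_2 (limma adjusted p = 0.0538, 0.0669 and 0.0607). It was also lost with a floor of 1 or 32, with no filter on dim probes and with no moderation of the variance (limma adjusted p = 0.0579, 0.0630, 0.122 and 0.0844). Without KD 1_2 Ccne2 passed the adjusted p, but its fall, -0.86, was under 2-fold.

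Ccne1 (chromosome 7, 38097984 to 38107490), which encodes cyclin E1, read 111.7, 138.1 and 178.1 on NS 1 to NS 3 and 72.3 to 139.2 on KD arrays, with a median of 95.4. KD 1, KD 3, KD 1_2 and KD 3_2 were below all NS arrays, and KD 2 and KD 2_2 lay within their range. The difference was -0.51 ± 0.23 (SE, 95% confidence interval -1.02 to -0.01, limma adjusted p = 0.176). Within sets it was -0.52, -0.11 and -0.91, and it was -0.34 without NS 3.

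The log2 ratio of Ccne2 to Ccne1 within an array was 1.46 to 2.31 on NS and 0.80 to 2.31 on KD arrays. The groups overlapped, and the difference of -0.52 did not pass (exact permutation p = 0.179, adjusted 0.357 over the 4 pairs). It was -0.78 without NS 3 and -0.36 without NS 2. That Ccne2 passed and Ccne1 did not is therefore no measured difference between them.

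Ccna2 (chromosome 3, 36564865 to 36573038) encodes cyclin A2, the cyclin that partners Cdk2 in S phase. It read 63.9, 84.8 and 53.2 on NS 1 to NS 3 and 41.1 to 57.3 on KD arrays, with a median of 50.4. NS 3 lay inside the KD range, while NS 1 and NS 2 were above every KD array. The difference was -0.43 ± 0.17 (SE, 95% confidence interval -0.81 to -0.04, limma adjusted p = 0.143), and -0.25 without NS 2. In sets 1 and 2 it was -0.60 and -0.73, and in set 3 it was 0.05.

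Cdk2 (chromosome 10, 128697938 to 128705051), the kinase that both cyclin E and cyclin A drive, was measured by 4 probes. The brightest read 4838.7, 4581.9 and 4017.2 on NS 1 to NS 3 and 4220.5 to 4838.7 on KD arrays, with a median of 4575.75. All 6 KD arrays lay within the NS range. The difference was 0.03 ± 0.11 (SE, 95% confidence interval -0.22 to 0.28, limma adjusted p = 0.886).

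The 3 dimmer Cdk2 probes gave log2 differences of -0.08, -0.22 and -0.26, with limma adjusted p of 0.739, 0.454 and 0.466. On the dimmest, NS arrays read 456.2, 519.3 and 398.0 and KD arrays 271.8 to 482.5, and 2 KD arrays (KD 2 and KD 1_2) were below all NS arrays. The mean over the 4 probes turned the direction, to -0.13 (limma adjusted p = 0.551). So the sign of the Cdk2 difference depends on the probe, and none of its probes passed.

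Cdc25a (chromosome 9, 109875518 to 109893895) encodes the phosphatase that removes inhibitory phosphates from Cdk2 and other CDKs. Its brighter probe read 179.9, 212.5 and 177.6 on NS 1 to NS 3, 178.2, 195.9 and 100.6 on KD 1 to KD 3, and 182.1, 200.3 and 181.6 on KD 1_2 to KD 3_2. All KD arrays but KD 3 lay within the NS range. The difference was -0.16 ± 0.21 (SE, 95% confidence interval -0.64 to 0.31, limma adjusted p = 0.663), and without KD 3 it was -0.01. The dimmer probe, at 13.1 to 47.6 over all arrays, was above the limit on 6 of 9 arrays and gave a difference of 0.01.

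**Figure D3:**
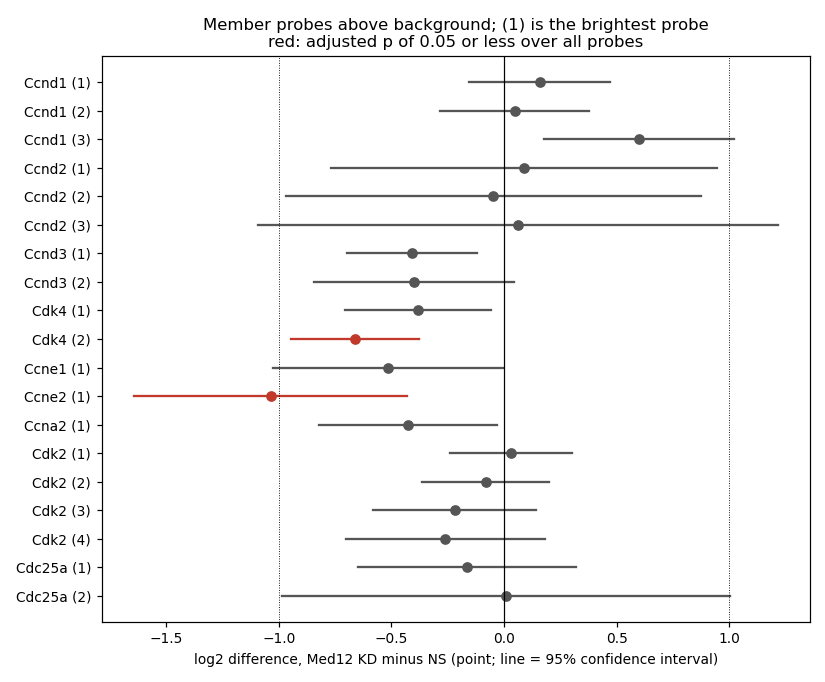
Log2 difference, Med12 KD minus NS control, of the 19 member probes above background (point) with the 95% confidence interval (line); number 1 is the brightest probe of a gene and dotted lines mark 2-fold. The intervals of Ccne2 and of the second Cdk4 probe, in red, belong to the probes with an adjusted p of 0.05 or less, and those of Cdk2, Ccnd2 and Cdc25a span 0.

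Of the 9 measured members, 6 had a lower mean in Med12 KD and 3 a higher one, and the 95% confidence interval lay below 0 for 5 (Ccne2, Ccne1, Ccna2, Ccnd3 and Cdk4). These 5 also had an unadjusted p of 0.05 or less, as did 26.8% of all genes, with 12.2% in the lower direction. All KD arrays lay below all NS arrays for 3 members, and for 8.39% of all genes. No member had all KD arrays above all NS arrays, where 10.2% of genes did. The median difference was -0.38 over these 9 members and -0.0022 over all genes tested, of which 50.3% had a negative difference. These counts are a description, and no test was made over the members.

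**Figure D4:**
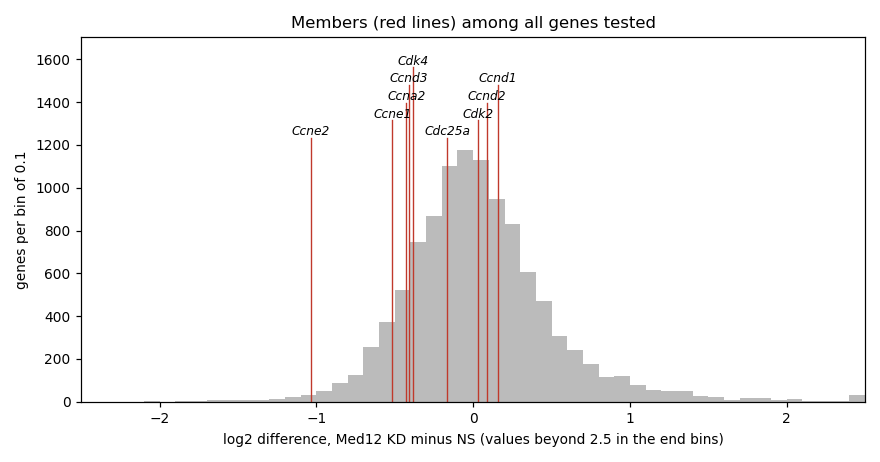
Number of genes by log2 difference, Med12 KD minus NS control, in bins of 0.1 over the 10757 genes tested (grey), with the 9 measured members as red lines. Ccne2 stands in the lower tail at -1.04, the lines from Ccne1 to Cdk4 lie between -0.51 and -0.38, and Cdc25a, Cdk2, Ccnd2 and Ccnd1 lie near the middle.

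The sets were also read one by one, since each holds its own NS array. Ccne2, Ccne1, Ccnd3 and Cdk4 were lower in Med12 KD in all 3 sets. The share of all genes lower in all 3 sets was not counted, so this is a description and no result about the members. Ccnd3 differed by -0.30, -0.53 and -0.40 and the brightest Cdk4 probe by -0.64, -0.39 and -0.12. The D-type cyclins Ccnd1 and Ccnd2 were higher in set 1, by 0.54 and 0.90. In set 2 they differed by -0.10 and 0.04, and in set 3 by 0.03 and -0.67. NS 1 was the lowest NS array on all 6 probes of these genes, so their set 1 values share that array. Cdk2 differed by -0.03, -0.09 and 0.22, and Cdc25a by 0.0019, -0.10 and -0.39.

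**Figure D5:**
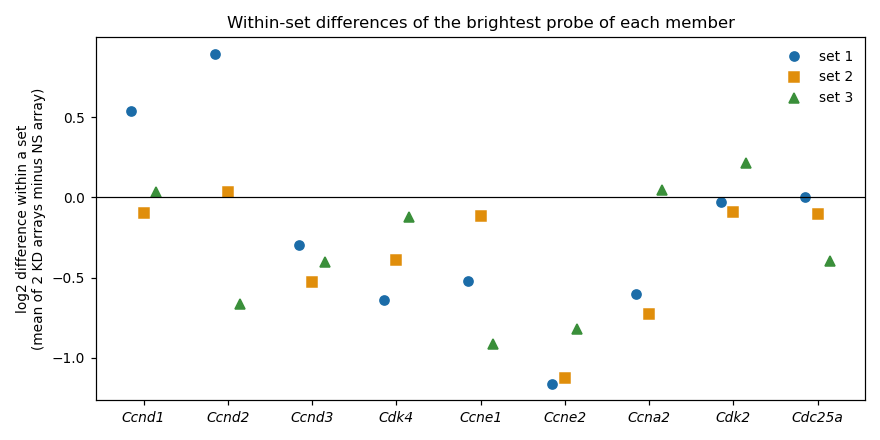
Log2 difference within each set, the mean of its 2 Med12 KD arrays minus its NS array, for the brightest probe of each measured member. All 3 sets lie below 0 for Ccnd3, Cdk4, Ccne1 and Ccne2, from -0.11 to -1.16, and the sets part in sign for the others.

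The genes nearest to Ccne2 over the 9 arrays, by root mean squared difference of log2 levels after each gene's mean was taken off, were E2f3 (0.211), which encodes an activating E2F factor, Gnl3 (0.213), which encodes nucleostemin, and Nrbf2 (0.274), which encodes a partner of the autophagy PI3-kinase complex. The median of this distance over all genes was 0.681. E2f3, Gnl3 and Nrbf2 differed by -1.13, -1.13 and -1.14 on the log2 scale (limma adjusted p = 0.00942, 0.00282 and 0.00298). A difference near that of Ccne2 follows from choosing genes by this distance, so these values describe the choice and are no separate result. Among the members, Cdk4 ranked 337 and Ccna2 396 in nearness to Ccne2, Ccne1 1226 and Ccnd3 1282, and Ccnd1 and Ccnd2 ranked 6082 and 8665 of the 10757 genes.

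Of the regulators upstream of the D-type cyclins, 9 of 12 listed genes were tested, of which 4 were lower, none was higher and 5 did not pass. Of all genes tested, 3.81% were lower and 6.56% higher by the same rule. This list and those below were chosen with earlier results of these data known, and no test was made over them. The 4 lower regulators were the growth factor response genes Egr1 (-1.39), Jun (-1.02) and Junb (-0.65), and Myc (-0.74), which binds E-boxes with Max (limma adjusted p = 0.00451, 0.00463, 0.0285 and 0.0285). Mean Egr1 intensity was 8193 ± 2427 (SD, n = 3) in NS control and 3096 ± 671 (SD, n = 6) in Med12 KD. Myc read 262 ± 53.0 (SD, n = 3) and 157 ± 25.8 (SD, n = 6). The median difference of the list was -0.37.

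The E2F and DP factors act below the CDKs and on the E-type cyclin genes. Of 10 listed, 8 were tested, 1 was higher, 1 was lower and 6 did not pass, where 6.56% of all genes were higher and 3.81% lower. E2f1 rose by 0.51 (SE 0.12, limma adjusted p = 0.0279), from a mean intensity of 971 ± 75.7 (SD, n = 3) to 1387 ± 132 (SD, n = 6). E2f3 fell by 1.13 (SE 0.21), from 249 ± 22.1 (SD, n = 3) to 116 ± 26.4 (SD, n = 6). The median difference of this list was -0.40.

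Of 20 E2F target genes of S phase, 18 were tested, with a median of -0.29. None of the 18 was higher, 2 were lower and 16 did not pass, where 6.56% of all genes were higher and 3.81% lower. The lower ones were Cdc6 (-0.53, limma adjusted p = 0.0305), which loads the replicative helicase, and Cdc45 (-0.69, limma adjusted p = 0.0225), a part of the active helicase. The CDK inhibitors and pocket proteins, which restrain the kinases described here, had 9 of 10 genes tested and a median of 0.15. None of these 9 passed. Among the other cyclins and CDKs of the cycle, 5 of 12 were tested (median -0.22), and among the CDC25, WEE1 and SCF genes, which set the phosphorylation and turnover of these proteins, 9 of 10 (median 0.03). None passed in either list.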

How the data were processed

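Biotin-labelled cRNA made from total RNA of mNS-5 NSCs had been hybridised to Illumina MouseWG-6 BeadChips. The authors subtracted background and quantile normalized in GenomeStudio (no version stated) and deposited intensity values on a linear scale, with 33.4% of them below 0. A second table, without normalization, was not used: its 18 columns of per-sample values carry names that match no sample. Values below 0 were mirrored to estimate background (SD 10.3), and the limit of 16.9 is the value that background exceeds with a one-sided p of 0.05. Probes above it on at least 3 arrays were kept (20026), values below 16 were set to 16, and log2 was taken, which understates changes of dim genes. A gene was represented by its brightest probe. Names came from the platform annotation (34885 probes with 1 symbol, 18 with several, 10378 unnamed here), and 34807 Entrez identifiers were found in a GRCm38.p6 gene table, with 0 symbols changed.

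Med12 KD was compared with NS control by limma 3.58.1 (lmFit, then eBayes; R 4.3.3). Tests were two-sided, and p-values were adjusted by Benjamini-Hochberg over 10757 genes or 20026 probes. The fold of 2 and the adjusted p of 0.05 are thresholds of the study, whose text names no test for the arrays. In a simulation over 10757 genes, arrays were drawn independently with the spread of each gene and without sets. At the adjusted p alone, 68% of 100 genes changed 2-fold and 96% of 100 changed 4-fold were recovered, with 10 false calls. Smaller changes were not simulated, and fewer genes were changed than were called in the data. Deviations of the NS array and of the mean of the KD arrays of a set from their group means correlated at 0.346, 0.180 and 0.176, so the set number was taken to pair arrays and a replicate block was run as an alternative. Deviations of the 2 KD arrays of a set correlated with each other at 0.271, -0.052 and 0.022 in sets 1 to 3. Deviations from a shared group mean lean towards negative correlation even where arrays are independent. Low values here therefore do not show that the 2 KD arrays of a set are independent. KD arrays of a set differed by a root mean squared log2 difference of 0.412 to 0.456, and KD arrays of different sets by 0.416 to 0.630. They were counted as separate samples, though whether they are technical repeats is not known. The number of arrays limits the precision.

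Named are all 10 members with every probe, Med12, up to 3 genes in each direction of each pathway list with an adjusted p of 0.05 or less, the 3 genes nearest to a member that passed, and markers with values given. Members, lists and tests were chosen with earlier results of these data known. E-box letters were added after the promoter sequences had been seen, and splits within sets after the results of the pairs. Alternatives covered the floor, the dim-probe filter, the probe standing for a gene, the block, the second KD arrays, array weights, the variance prior and leaving out each array. Plots were made in Python 3.11.15 (matplotlib 3.10.9).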

Additional observations from a re-analysis of the deposited data

Results flagged for a closer look

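Among the 6 Med12 KD arrays, 5 of 19 member probes had 1 array far from the rest, by the gap to its neighbour as a share of the whole range. Chance flags about 1 in 20 such groups, and 9.18% of the 10757 genes tested (988) were flagged at either end. By the brightest probe, 4 of 9 members were. KD 1_2 was lowest for Ccne2 (146.0, share 0.635) and for the brightest Cdk4 probe (3113.7, share 0.636). KD 3 was lowest for the brightest Ccnd2 probe (1160.0, share 0.762), for the second Ccnd2 probe (658.4, share 0.890) and for the brighter Cdc25a probe (100.6, share 0.830).

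Over all 10757 genes, KD 3 was the array set apart at the low end in 1.33% of genes and KD 1_2 in 1.18%, where the other KD arrays were so in 0.270% to 0.521%. Without KD 1_2, Ccne2 fell by 0.86 (limma adjusted p = 0.0195). Without KD 3, Ccnd2 differed by 0.37 and Cdc25a by -0.01, and neither passed.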

How the results depend on the processing

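Among 25 alternatives, the direction of Ccne2, Ccne1, Ccna2, Ccnd3, Cdk4, Cdc25a and Ccnd1 held in all, and no member was higher. By adjusted p alone, Ccne2 kept its call in 14, with an adjusted p from 0.0102 to 0.138 over all 25, Ccnd3 passed in 8 and Cdk4 in 2. Some of the 14 put the fall of Ccne2 under 2-fold. It was -0.99 with 16 added, -0.91 with 50 added, -0.98 with array weights and -0.86 without KD 1_2. With values below 32 set to 32, no filter or no moderation, the number of members lower stayed at 1, but Ccnd3 passed and Ccne2 did not. The number of members lower was 0 with values below 1 set to 1 and with KD 1 to KD 3 alone, 2 with 50 added, with the limit exceeded on all 9 arrays, with the mean of probes, with the replicate block (Ccne2 and Ccnd3) and with array weights, and 3 with a variance trend. It was 0 to 1 with each array left out. The replicate block changed no other member's call. With splits within sets as a replicate block Ccnd1 minus Ccnd3 (0.57) lost its call (adjusted exact p = 0.148), which 27 splits cannot give to 1 pair alone. All genes higher and lower numbered 163 and 45 with 50 added, 199 and 49 with no filter, and 154 and 43 with KD 1 to KD 3 alone. Cdk2 turned to -0.13 with the mean of probes and -0.0039 with the second KD arrays alone, and ranged from -0.044 to 0.090 with an array left out. Ccnd2 turned to -0.14 with KD 1 to KD 3 alone and ranged from -0.11 to 0.37. The pairs ranged, with an array left out, from -0.19 to 0.15 (Ccnd1 minus Ccnd2), 0.50 to 0.61 (Ccnd1 minus Ccnd3), 0.37 to 0.77 (Ccnd2 minus Ccnd3) and -0.78 to -0.36 (Ccne2 minus Ccne1). With the sense strand only, 1 window held E2F letters. The causes were not tested.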
